A study of Mus musculus with 8 samples.

Results

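The 10 genes described here belong to the pigment cell program of the melanocyte: Tyr, Tyrp1, Dct, Pmel, Mlana, Oca2, Slc45a2, Trpm1, Mitf and Sox10. They were taken by gene symbol. All 10 were on the array, with 21 probe sets, against 18193 genes and 45101 probe sets in all. Their transcripts were measured in frozen dorsal skin of Balb/c mice in a model of atopic dermatitis driven by the contact hapten 1-chloro-2,4-dinitrobenzene (DNCB).

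DNCB+HY209 skin (n = 3) received DNCB for 15 days and a PEG gel with 5% HY209, which acts on the bile acid receptor GPCR19, over the last 7 days (titled DNCB_HY209(+)). DNCB skin (n = 3) received DNCB for the same 15 days and vehicle over the last 7 days (titled DNCB_HY209(-)). Sham skin (n = 2) had neither agent by its titles and source names, although its protocol fields repeat the text of the DNCB model. All mice were Balb/c, and their age is not given in the labels. No label says that replicate arrays are of different mice, so a p-value here reflects only how far these arrays scatter, which may be technical.

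Melanocytes make melanin in an organelle called the melanosome. Tyrosinase starts the synthesis, related enzymes shape the product, a fibril protein carries the pigment, and transporters set the ion balance of the organelle. The transcription factor MITF switches on most of these genes. In mouse back skin the pigment cells lie mainly in the hair follicle, where they are active while the hair grows and are lost as the follicle regresses. Balb/c mice are albino because they carry a missense allele of Tyr, and they also carry the brown allele of Tyrp1. Neither change removes the cells, so the transcripts can still be read in white skin.

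MITF is known to bind a short element, CATGTG, in the promoters of pigment genes. Promoter windows from RefSeq, which hold 250 bases before and 50 bases after a start site of the C57BL/6J reference, were found for 6 of the 10 genes, in 9 windows. Windows of 4 genes are shown because their genes moved together across the arrays and because they carry the element on the strand of the gene. The 250 bases before the start site are given 5′ to 3′, with every CATGTG or its reverse complement CACATG in capitals (build GRCm38.p6).

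Tyr (chr7:87493513-87493762, minus strand): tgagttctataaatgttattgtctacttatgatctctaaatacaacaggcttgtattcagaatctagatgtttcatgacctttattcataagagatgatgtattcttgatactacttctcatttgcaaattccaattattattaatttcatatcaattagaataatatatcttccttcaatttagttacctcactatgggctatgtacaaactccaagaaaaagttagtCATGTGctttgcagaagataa

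Tyrp1 (chr4:80833963-80834212, plus strand): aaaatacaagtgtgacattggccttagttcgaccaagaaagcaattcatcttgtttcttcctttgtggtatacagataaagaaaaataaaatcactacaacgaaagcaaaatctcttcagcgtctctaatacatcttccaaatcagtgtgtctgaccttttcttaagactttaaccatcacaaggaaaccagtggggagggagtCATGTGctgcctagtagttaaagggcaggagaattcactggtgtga

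Dct (chr14:118052247-118052496, minus strand): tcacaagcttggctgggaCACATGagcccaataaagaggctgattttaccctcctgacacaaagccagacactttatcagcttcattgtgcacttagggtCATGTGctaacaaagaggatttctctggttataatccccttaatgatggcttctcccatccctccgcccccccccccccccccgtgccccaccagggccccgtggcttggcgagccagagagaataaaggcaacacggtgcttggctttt

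Trpm1 (chr7:64153585-64153834, plus strand): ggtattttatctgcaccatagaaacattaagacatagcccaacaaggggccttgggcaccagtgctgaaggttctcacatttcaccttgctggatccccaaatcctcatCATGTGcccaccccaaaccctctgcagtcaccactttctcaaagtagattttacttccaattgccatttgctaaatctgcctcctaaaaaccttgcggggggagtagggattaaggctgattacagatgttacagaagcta

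Counted from the start site, the element began at -21 in Tyr, -46 in Tyrp1, -150 in Dct and -141 in Trpm1. Dct held a further copy on the other strand, at -232. Counting both strands, 6 of the 9 windows of the pigment genes held CATGTG, against 14.2% of all 32851 windows. The longer form TCATGTGCT, which contains it, was in 3 of the 9, those of Tyr, Tyrp1 and Dct, against 0.408% of all windows. None of the 3 windows of Mitf held CATGTG. The related sequence CACGTG, also searched for, was in 1 of the 9 windows, against 7.15% of all windows. These matches describe letters in the reference and were not tested for binding. The element is already known from promoters of pigment genes, so its share in these windows is not an independent test of enrichment. The same limit holds for the longer form, which contains it. The 9 windows came from 6 genes and are not independent of each other.

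The arrays were of skin by their markers, with mean log2 signals of the 10 measured epidermal keratinocyte genes between 9.01 and 11.20. Gapdh signal at the 3′ end over that at the 5′ end, a measure of RNA degradation, was 7.35 on DNCB array 3, 4.46 on sham array 1 and 3.24 on DNCB+HY209 array 1, and lay between 2.10 and 2.81 on the other 5. These 3 arrays were also the ones with the highest mean signal of the 10 pigment genes. In a fit that held the log2 Gapdh ratio constant, which was chosen after seeing the data, the median difference of the 10 genes was -1.22 for DNCB against sham and 1.34 for DNCB+HY209 against DNCB. For DNCB+HY209 against sham it was 0.19, in place of -0.18. The median log2 signal of all probe sets was 4.07 to 4.21, and log2 differences of signals near that level are approximate.

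The pigment genes were high on some arrays of each group and low on others. Their mean log2 signal was 8.01, 5.84 and 6.03 on DNCB+HY209 arrays 1, 2 and 3. In DNCB skin it was 5.12, 5.49 and 6.48. In sham skin it was 7.83 and 5.996. Array 1 stood high in DNCB+HY209 and in sham skin, and the other 6 arrays lay between 5.12 and 6.48. In whole skin, fewer melanocytes and less RNA per melanocyte cannot be told apart.

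**Figure D1:**
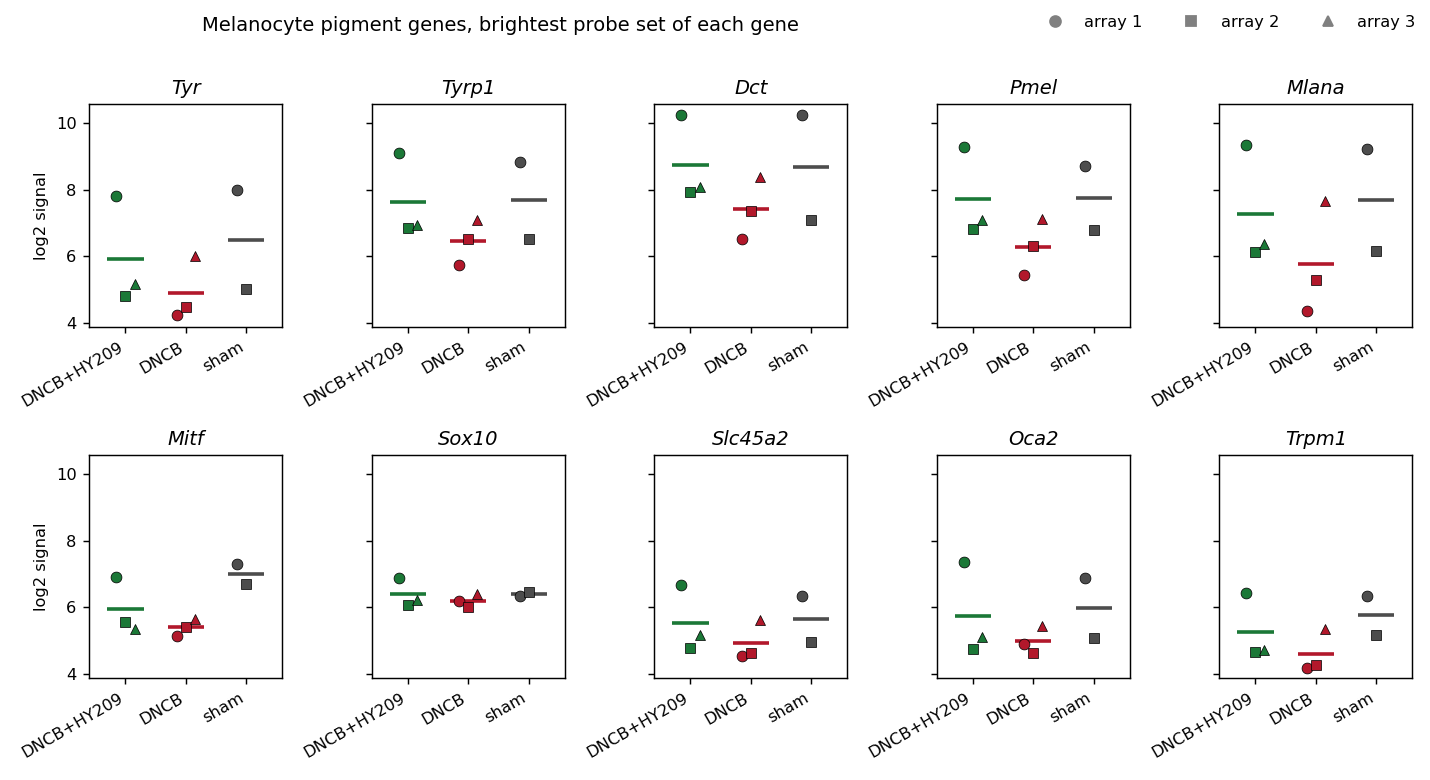
Log2 signal (vertical axis) of the brightest probe set of each of the 10 pigment genes on each array, in DNCB+HY209 (n = 3), DNCB (n = 3) and sham (n = 2) skin, with symbols for the array number and bars for group means. For 9 of the 10 genes the 2 highest arrays were DNCB+HY209 array 1 and sham array 1.

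The enzymes of melanin synthesis ranged over 10-fold or more between arrays. Tyr encodes tyrosinase, which oxidises tyrosine in the first step of the pathway. Its log2 signal was 7.82, 4.82 and 5.16 in DNCB+HY209 skin, 4.22, 4.48 and 6.02 in DNCB skin, and 7.99 and 5.02 in sham skin. The groups overlapped, and the sham arrays alone differed by 2.97. Tyr averaged 5.94 ± 1.64 in DNCB+HY209 (SD, n = 3), 4.91 ± 0.97 in DNCB (n = 3) and 6.50 ± 2.10 in sham (n = 2). By limma the log2 difference was -1.60 for DNCB against sham (SE 1.06, adjusted p = 0.439) and 1.03 for DNCB+HY209 against DNCB (SE 0.95).

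Tyrp1 encodes a melanosomal protein related to tyrosinase that stabilises it and acts late in black pigment formation. It gave 9.12, 6.85 and 6.95 in DNCB+HY209 skin, 5.73, 6.54 and 7.11 in DNCB skin, and 8.86 and 6.53 in sham skin. Apart from array 1, the DNCB+HY209 arrays lay inside the DNCB range, and sham array 2 lay inside it too. DNCB differed from sham by -1.23 (SE 0.83, adjusted p = 0.442) and DNCB+HY209 from DNCB by 1.18 (SE 0.74). Dct, or dopachrome tautomerase, converts dopachrome on the way to eumelanin and is an early marker of the lineage. Its signals were 10.27, 7.94 and 8.09 with HY209, 6.53, 7.37 and 8.39 in DNCB skin, and 10.25 and 7.10 in sham skin. DNCB+HY209 array 1 and sham array 1 were nearly equal, while the sham arrays differed from each other by 3.15. The difference was -1.24 for DNCB against sham (SE 0.99, adjusted p = 0.509) and 1.33 for DNCB+HY209 against DNCB (SE 0.88). The direction of the first turned to 0.33 without sham array 1.

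Pmel and Mlana encode proteins of the melanosome and its formation, and both had DNCB+HY209 array 1 and sham array 1 as the highest arrays. Pmel forms the fibrils on which melanin is laid down. It was at 9.29, 6.82 and 7.10 in DNCB+HY209 skin, 5.44, 6.32 and 7.13 in DNCB skin, and 8.72 and 6.78 in sham skin. DNCB+HY209 and sham skin had nearly equal means of 7.74 and 7.75, while DNCB skin averaged 6.30. The groups overlapped in both comparisons, with limma differences of -1.45 for DNCB against sham (SE 0.83, adjusted p = 0.388) and 1.44 for DNCB+HY209 against DNCB (SE 0.74, unadjusted p = 0.0838).

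Mlana, a small membrane protein that assists PMEL maturation, covered the widest range of the 10 genes. It measured 9.34, 6.13 and 6.39 with HY209, 4.36, 5.29 and 7.68 in DNCB skin, and 9.23 and 6.15 in sham skin. The lowest and the highest array, DNCB array 1 and DNCB+HY209 array 1, differed by 31.7-fold, and DNCB array 3 lay above sham array 2. The difference was -1.92 for DNCB against sham (SE 1.27, adjusted p = 0.439) and 1.51 for DNCB+HY209 against DNCB (SE 1.14).

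Transporters and channels of the melanosome and cell membrane follow. Oca2, an anion channel protein of the melanosome that keeps its pH up, gave 7.35, 4.75 and 5.10 with HY209, 4.89, 4.62 and 5.45 in DNCB skin, and 6.89 and 5.08 in sham skin. Array 1 alone stood apart in DNCB+HY209 skin, 2.43 above the mean of the other 2, and without it the difference from DNCB was -0.058, against 0.75 (SE 0.68) with it. Slc45a2, a membrane transporter of the melanosome whose loss gives oculocutaneous albinism, gave 6.67, 4.77 and 5.17 with HY209, 4.53, 4.63 and 5.63 in DNCB skin, and 6.34 and 4.95 in sham skin. Values of all groups overlapped. DNCB differed from sham by -1.003 for Oca2 (SE 0.76, adjusted p = 0.492) and by -0.72 for Slc45a2 (SE 0.61, adjusted p = 0.537).

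Trpm1, a cation channel gene with a microRNA gene in an intron, measured 6.44, 4.66 and 4.71 with HY209, 4.18, 4.27 and 5.34 in DNCB skin, and 6.35 and 5.17 in sham skin. Sham array 2 lay below DNCB array 3, so the groups overlapped narrowly. The difference was -1.17 for DNCB against sham (SE 0.60, adjusted p = 0.346, unadjusted p = 0.0836) and 0.67 for DNCB+HY209 against DNCB (SE 0.54).

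Mitf and Sox10, the regulators, followed the other members less closely. Mitf, the master transcription factor of the melanocyte, had log2 signals of 6.93, 5.55 and 5.36 in DNCB+HY209 skin, 5.15, 5.40 and 5.64 in DNCB skin, and 7.29 and 6.70 in sham skin. Both sham arrays lay above all 3 DNCB arrays. By the brightest probe set of each gene this held for 1 of the 10, Mitf, and for 11.2% of all genes tested. Its mean was 5.40 ± 0.24 in DNCB (SD, n = 3) and 7.00 ± 0.42 in sham (n = 2), a difference of -1.60 (SE 0.44, unadjusted p = 0.00559, adjusted p = 0.129). It did not pass the threshold of 0.05 over all genes with limma. The adjusted p was 0.0171 without DNCB+HY209 array 1, with the same difference, and 0.0465 in a fit of the DNCB and sham arrays only. Across the other settings and left-out arrays it stayed above the threshold. DNCB+HY209 differed from DNCB by 0.55 (SE 0.39) and from sham by -1.05 (SE 0.44, adjusted p = 0.243), and by -1.54 from sham without DNCB+HY209 array 1 (adjusted p = 0.0342). MITF is also made in mast cells and osteoclasts. Of the 10 mast cell markers, 4 passed the filter on low signal, with means of 4.25 to 4.76 in DNCB+HY209, 4.51 to 4.60 in DNCB and 4.36 to 4.60 in sham skin. Among the 4 was Kit, which is also a receptor of melanocytes. On DNCB+HY209 array 1 Kit lay at 5.72, and Cpa3 and Hdc at 4.05 and 4.04. The 12 macrophage and osteoclast-type markers averaged 5.42 to 6.13 in DNCB+HY209, 5.67 to 6.68 in DNCB and 5.78 to 5.86 in sham skin. Their part in the Mitf signal was not tested.

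Sox10, a factor of the neural crest that acts upstream of Mitf and is shared by melanocytes and Schwann cells, was the steadiest of the 10. It gave 6.90, 6.07 and 6.24 with HY209, 6.20, 6.005 and 6.41 in DNCB skin, and 6.34 and 6.48 in sham skin. Sham array 1 lay below sham array 2 here, unlike in the other 9 genes. The difference was -0.20 for DNCB against sham (SE 0.28, adjusted p = 0.698) and 0.19 for DNCB+HY209 against DNCB (SE 0.25).

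All 21 probe sets were examined, of which 17 passed the filter. The 3 probe sets of Tyrp1 moved together, and 1 of them, whose identifier marks possible cross-hybridisation, represents the gene as the brightest. Of the 3 for Tyr, 1 lay below the array median on all 8 arrays and spanned 2.54 to 3.89. Probe sets of Mitf, Slc45a2 and Trpm1, 1 each, also stayed below the median on every array. For Trpm1 the probe set of widest range gave 5.97, 3.13 and 3.82 in DNCB+HY209 skin, 2.77, 3.00 and 4.33 in DNCB skin, and 5.95 and 4.58 in sham skin. Sox10 probe sets disagreed in sign, at -0.20, -0.35 and 0.12 for DNCB against sham. In 15 of the 21 probe sets the 2 highest arrays were DNCB+HY209 array 1 and sham array 1, against 5.15% of all 45037 probe sets that are not controls.

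**Figure D2:**
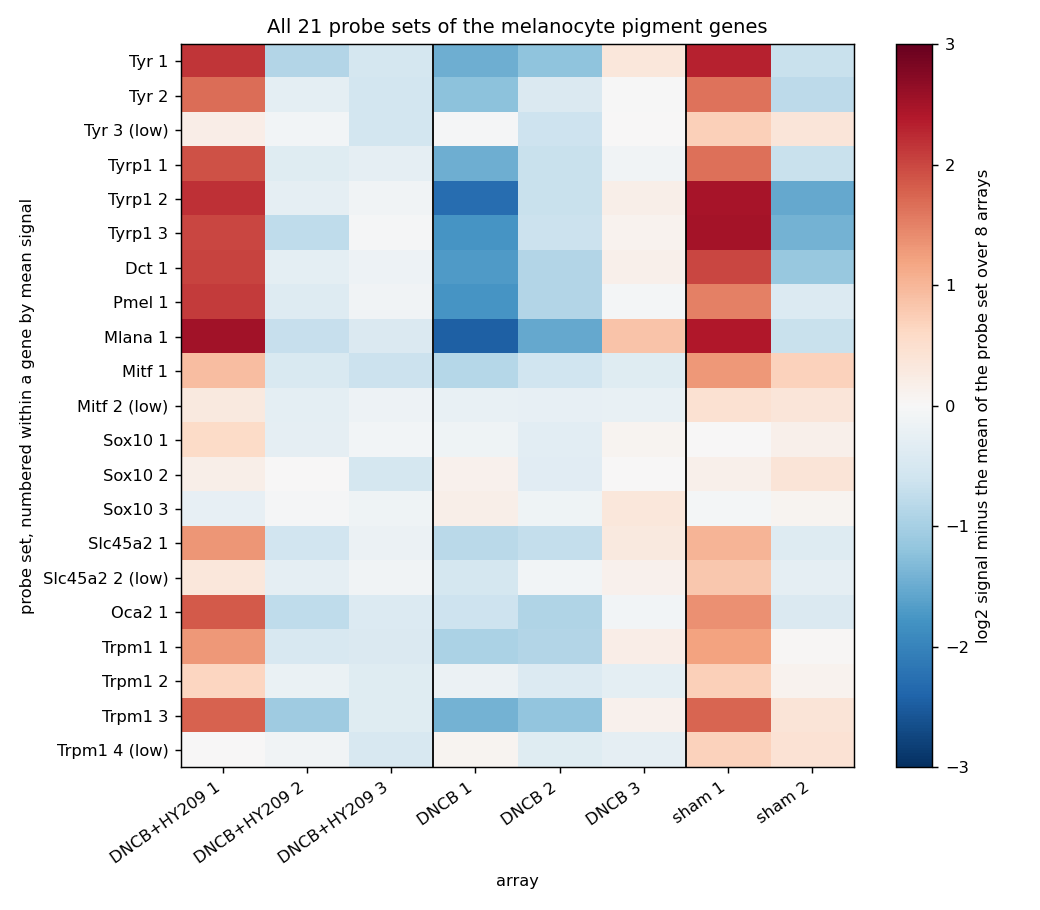
Log2 signal of each of the 21 probe sets minus its mean over the 8 arrays (colour, red above and blue below), with arrays in columns by group and probe sets in rows, "low" marking those that did not pass the filter. The columns of DNCB+HY209 array 1 and sham array 1 are red for most probe sets, and those of Sox10 are pale throughout.

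DNCB against sham set skin given the hapten and vehicle against skin labelled as given neither DNCB nor HY209. Whether sham skin received vehicle is not clear from the labels, so the hapten and the vehicle cannot be told apart. All 10 pigment genes had lower means in DNCB skin, as did 4575 of all 12430 genes tested. Most of the 10 varied together across arrays, so the shared direction is not 10 independent results. The differences of the 10 ran from -1.92 for Mlana to -0.20 for Sox10, with a median of -1.24, against 0.15 over all genes. None passed the threshold by limma, and 1, Mitf, had an unadjusted p under 0.05. Over all genes 1.83% were called, 170 higher and 57 lower, and 4.39% were lower at an unadjusted p under 0.05. The members' counts are near this background. The 21 probe sets gave 20 lower and 1 higher, with 7 not overlapping in the lower direction, against 16.3% of all probe sets. The 7 were of Mitf, Trpm1, Sox10 and Tyr. Among them, 1 probe set each of Tyr, Mitf and Trpm1 lay below the array median on every array, where log2 differences are approximate. The median difference was -0.19 without sham array 1 and -2.15 without sham array 2.

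DNCB+HY209 against DNCB asked what HY209 changed, against vehicle, in skin treated with DNCB. The means of all 10 genes were higher with HY209, as were those of 7084 of all 12430 genes tested. Here too the shared direction is not 10 independent results. The differences of the 10 ran from 0.19 for Sox10 to 1.51 for Mlana, with a median of 0.89, against 0.03 over all genes. None passed (adjusted p = 1.00 for each by limma) and 0 had an unadjusted p under 0.05, in a comparison where 0% of all genes were called and 1.3% had an unadjusted p under 0.05. For none of the 10 did the groups separate, against 2.82% of all genes higher. Without DNCB+HY209 array 1 the median difference was 0.09. Values without the other arrays of these groups ran from 0.69 to 1.41.

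DNCB+HY209 against sham shares arrays with the other comparisons. The differences ran from -1.05 for Mitf to 0.09 for Dct with a median of -0.18, against 0.20 over all genes. None passed by limma, 1 had an unadjusted p under 0.05, again Mitf, and 0.402% of all genes were called. Genes lower at an unadjusted p under 0.05 made up 5.11% of all. The sign of the median depended on single arrays and on covariates. It was 0.79 without sham array 1 and -1.18 without sham array 2. Without DNCB+HY209 arrays 1, 2 and 3 in turn it was -0.93, 0.21 and 0.07.

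**Figure D3:**
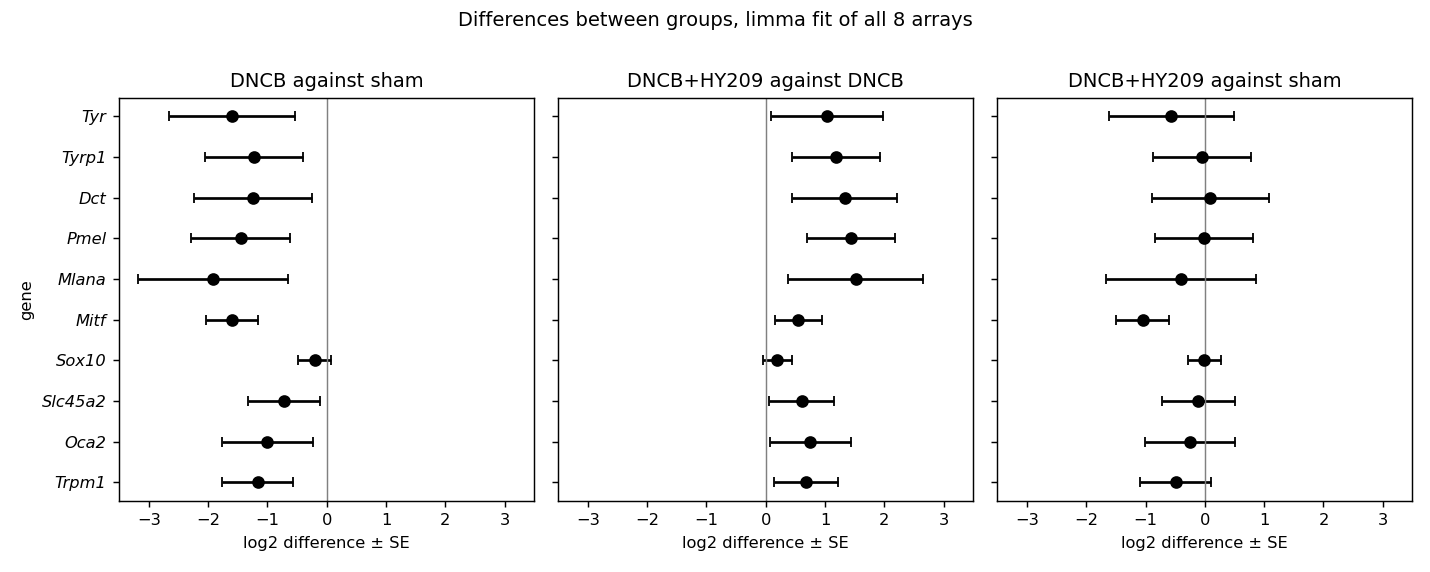
Log2 difference with its moderated SE (horizontal axis) for each of the 10 genes in the 3 comparisons, from the limma fit of all 8 arrays. Points lie left of 0 for DNCB against sham and right of 0 for DNCB+HY209 against DNCB, and for 1 gene, Mitf, the difference exceeded 2 SE in both comparisons with sham.

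**Figure D4:**
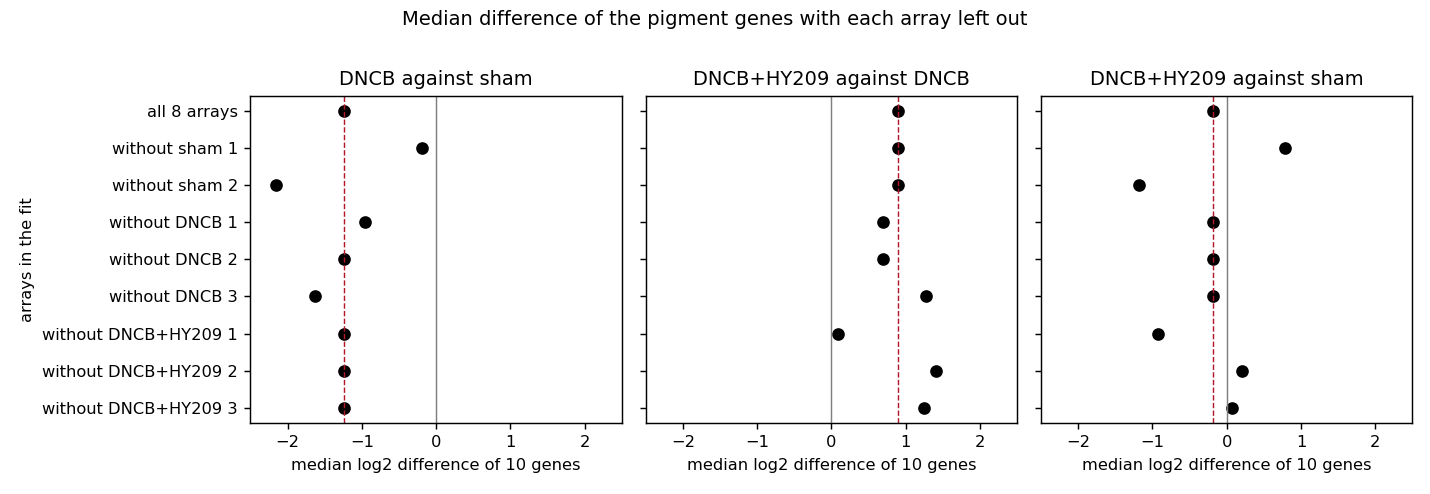
Median log2 difference of the 10 pigment genes (horizontal axis) in each comparison with all 8 arrays and with each array left out in turn (vertical axis), the dashed line marking all 8. The median for DNCB against sham moved to -0.19 without sham array 1, and that for DNCB+HY209 against DNCB to 0.09 without DNCB+HY209 array 1.

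The spread within groups was large for these genes. The median gap between the sham arrays was 1.87 for the 10 genes, against 0.33 over all genes tested. The median range over the 3 DNCB+HY209 arrays was 2.30, against 0.44, and over the 3 DNCB arrays 1.26, against 0.56. Differences between groups made up a median of 24.1% of the variance of a pigment gene over the 8 arrays, from 13.4% for Sox10 to 63.5% for Mitf, against 35.1% over all genes. Sham array 1 exceeded sham array 2 by 8.87-fold for Dct, 8.47-fold for Mlana and 7.85-fold for Tyr, but by 1.51-fold for Mitf. Sham array 1 and DNCB+HY209 array 1 were the 2 highest arrays in 9 of the 10 genes, against 4.92% of all genes. Within DNCB skin array 3 was the highest in all 10 genes, against 24.0% of all genes. Within DNCB+HY209 skin array 1 was the highest in all 10, against 30.3%.

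Most members varied together from array to array, over ranges that differed between genes, from 1.85-fold for Sox10 to 31.7-fold for Mlana between the lowest and the highest array. Over the 8 arrays, 28 pairs among the 8 genes other than Mitf and Sox10 had Pearson r from 0.92 to 0.99. Pairs of Sox10 with the other 9 had r of 0.60 to 0.79. Mitf reached 0.90 with Trpm1 and 0.73 with Dct. These values describe 8 arrays that share groups and carry no p-value.

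The genes outside the list whose levels were most like the mean of the 10, over the same 8 arrays, were Ptgds, Msx2, Dcaf17, Lpar2, Krt36, Gpnmb, Zfp618, Krt31, Dclk3 and Dlx3, with r from 0.97 to 0.99. After group means were subtracted r was 0.97 to 1.00 for these genes. Ptgds makes prostaglandin D2, Gpnmb encodes a glycoprotein of melanosomes and macrophages, Krt31 and Krt36 are hair keratins, and Msx2 and Dlx3 are homeobox factors of the hair follicle. Krt31 measured 9.92, 6.53 and 6.94 in DNCB+HY209 skin, 5.34, 5.96 and 8.22 in DNCB skin, and 10.67 and 6.44 in sham skin. Gpnmb had 8.27, 5.88 and 6.22 with HY209, 5.67, 6.18 and 6.72 in DNCB skin, and 8.19 and 6.26 in sham skin. Both were picked for likeness to the mean of the pigment genes. Their high first arrays of DNCB+HY209 and of sham skin follow from that choice.

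Genes of the growing hair follicle varied with the pigment genes from array to array. The 32 of 36 listed genes that were tested had a median r of 0.87 with the mean of the pigment genes, from 0.33 to 0.98, against -0.09 over all other genes, and 9 of the 32 were among the 100 most alike. Their mean log2 signal was 7.47, 5.41 and 5.48 in DNCB+HY209 skin, 4.89, 4.94 and 6.41 in DNCB skin, and 8.73 and 6.31 in sham skin. In both lists DNCB array 1 was the lowest and DNCB array 3 the third highest. Sham array 1 was the highest for the hair list and DNCB+HY209 array 1 for the pigment genes. For DNCB against sham 5 of the 32 fell and 0 rose by limma, with a median difference of -1.93. Over all 12430 genes tested 57 fell and 170 rose, or 1.83% called. Of the 5, 4 were above the array median on no DNCB array and passed the filter through arrays that included both of the sham group, where they were high, so their calls are not independent of the filter. Krt86 and Krtap7-1, which were not called, also lay below the array median on every DNCB array. The r, means and median difference of the list include such genes and are not wholly independent of the filter. Krtap3-1, which encodes a hair shaft matrix protein, was above the median on all 8 arrays and fell by 1.97 (SE 0.37, adjusted p = 0.0392). Krtap4-7 and Krtap6-2, of the same class, were among the 4. Krtap4-7 differed by -2.18 (SE 0.23, adjusted p = 0.00593), and Krtap6-2 by -2.24 (SE 0.43), with an adjusted p of 0.0426. Krtap4-7 measured 3.85, 3.24 and 3.47 in DNCB+HY209 skin, 3.33, 3.31 and 3.64 in DNCB skin, and 5.75 and 5.47 in sham skin. Its sham arrays lay close together and above all others, unlike those of most pigment genes, and it passed the filter through the sham arrays alone. For DNCB+HY209 against DNCB 31 of 32 had higher means, against 7084 of all 12430 genes tested, with a median of 0.78 and 0 called. For DNCB+HY209 against sham 1 of the 32 was called, Krtap4-7, at -2.09 (SE 0.23, adjusted p = 0.0103), with the same limit. Over all genes 0.402% were called there.

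With the hair follicle mean as a covariate the median difference of the pigment genes was 0.76 for DNCB against sham, in place of -1.24, and 0.22 for DNCB+HY209 against DNCB, in place of 0.89. Of the 10 genes, 9 turned to a higher value in DNCB than in sham under this covariate, and Mitf did not, at -0.69 (adjusted p = 0.66). No pigment gene was called in this fit. The covariate itself averaged 7.52 in sham and 5.41 in DNCB skin and varied with the pigment genes. This fit therefore cannot hold the follicle apart from the treatment. The part of the follicle in the differences was not tested. Other tissue lists differed between arrays too. The 12 skeletal muscle genes averaged 10.61 to 10.97 in DNCB+HY209, 9.58 to 11.89 in DNCB and 9.39 to 10.85 in sham skin. The 6 adipocyte genes averaged 6.13 to 6.87 in DNCB+HY209, 6.01 to 7.50 in DNCB and 7.52 to 8.16 in sham skin. The 6 endothelial genes averaged 5.26 to 5.86 in DNCB+HY209, 5.89 to 6.72 in DNCB and 4.78 to 4.99 in sham skin, and these ranges did not overlap. Of them 3 rose for DNCB against sham by limma, Cdh5, Emcn and Plvap, by 2.20, 1.86 and 1.83, though Emcn lay below the array median on both sham arrays. Over all 12430 genes tested 170 rose in that comparison. Groups were higher without overlap for all 6 endothelial genes and for 2889 of all genes. The 7 fibroblast genes averaged 8.09 to 8.30 in DNCB+HY209, 8.43 to 9.61 in DNCB and 8.40 to 8.93 in sham skin, with 0 called. Of the muscle genes Myh2 rose for DNCB against sham, by 4.45 (SE 0.48, adjusted p = 0.00639), and for DNCB+HY209 against sham, by 4.66 (SE 0.48, adjusted p = 0.00682). Of the 10 keratinocyte genes Krt15, a keratin of basal and bulge cells, fell for DNCB against sham by 2.82 (SE 0.52, adjusted p = 0.0365). It was the only 1 with a lower mean in DNCB skin. The other 9 had higher means, with 0 called, and the median difference of the list was 0.66. The part of these tissues in the pigment gene differences was not tested.

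**Figure D5:**
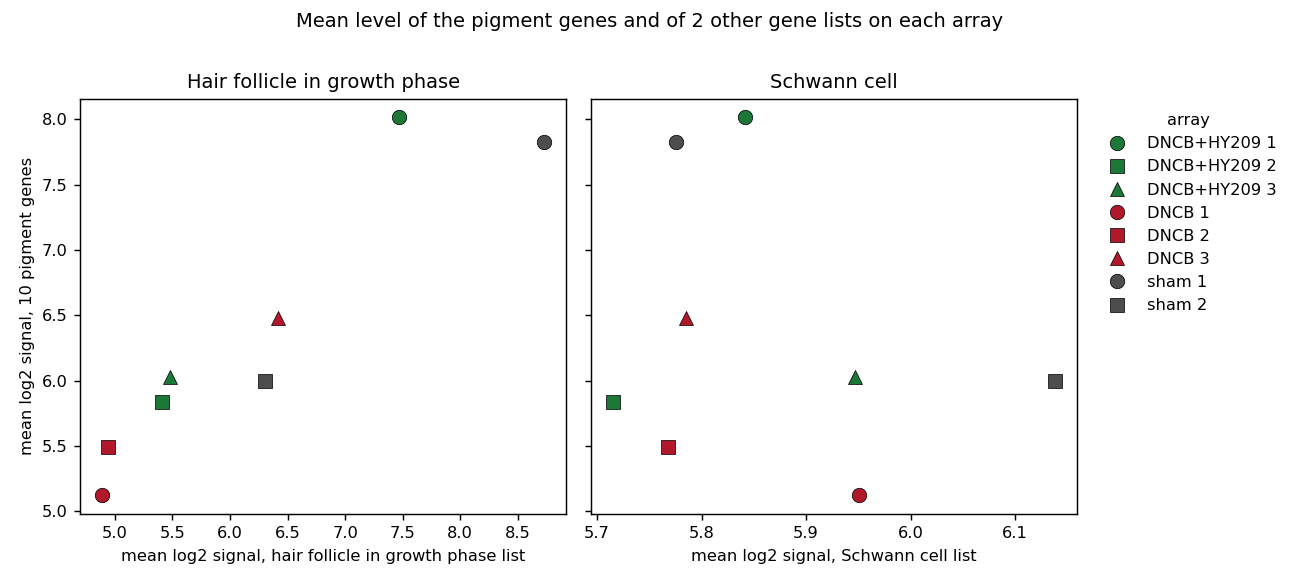
Mean log2 signal of the 10 pigment genes (vertical axis) against that of 32 hair follicle genes (left, horizontal axis) and 9 Schwann cell genes (right) on each of the 8 arrays, coloured by group and shaped by array number. DNCB+HY209 array 1 and sham array 1 are high in pigment genes and in hair follicle genes, and the Schwann cell means span 5.71 to 6.14 with no such order.

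Schwann cell genes, which share Sox10 with melanocytes, did not follow the other pigment genes. Of the 13 on the array 9 passed the filter. Their mean was 5.84, 5.71 and 5.95 in DNCB+HY209 skin, 5.95, 5.77 and 5.79 in DNCB skin, and 5.78 and 6.14 in sham skin. The list had a median r of -0.11 with the pigment genes, and 0 of 9 were called in each comparison. Egr2, a factor of myelinating Schwann cells, had the largest moderated t, at -0.83 for DNCB against sham (SE 0.35, adjusted p = 0.284).

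Of 22 tested genes of melanosome formation and transport, 0 rose and 0 fell in any comparison by limma, and their median difference was 0.13 for DNCB against sham and 0.08 for DNCB+HY209 against DNCB. Most serve organelles of many cell types, and the median r of the list was 0.24. Hps1, a subunit of a lysosome biogenesis complex, had the largest t for DNCB against sham, at -0.82 (SE 0.22, adjusted p = 0.126). Rab27a, which ties melanosomes to their motor, had it for DNCB+HY209 against DNCB, at 0.49 (SE 0.23). The most alike, named after its values were seen, was Gpr143, the melanosomal receptor of ocular albinism, with r of 0.94. Its signals, near or below the array medians, were 4.31, 2.72 and 3.19 with HY209, 3.04, 2.93 and 3.59 in DNCB skin, and 4.49 and 3.04 in sham skin. It lay above the median only on DNCB+HY209 array 1 and sham array 1 and passed the filter through them. Its r is therefore not independent of the filter.

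Signals and receptors of melanocytes numbered 11 tested genes, with 0 called in any comparison and a median difference of -0.06 for DNCB against sham and 0.10 for DNCB+HY209 against DNCB. Edn3, the endothelin that supports melanocyte precursors, gave 6.41, 5.73 and 5.48 with HY209, 5.74, 5.30 and 6.27 in DNCB skin, and 6.92 and 7.04 in sham skin. It was higher on both sham arrays than on the 6 others, with a difference of -1.21 for DNCB against sham (SE 0.34, adjusted p = 0.139). In that comparison 11.2% of all genes tested were lower without overlap. Edn1 was lower on all 3 DNCB+HY209 arrays, at 4.79, 4.60 and 4.65, than on the DNCB arrays, at 5.50, 5.37 and 5.31, a difference of -0.71 (SE 0.16) that did not pass (adjusted p = 1.00). Of all 12430 genes tested, 271 were lower without overlap for DNCB+HY209 against DNCB. Mc1r, the melanocortin receptor that selects black over yellow pigment, was named after its values were seen for its r of 0.93, the highest of the list. It measured 7.10, 5.05 and 4.99 with HY209, 4.63, 4.38 and 6.59 in DNCB skin, and 6.81 and 5.10 in sham skin.

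Lineage regulators, 11 tested, had 0 calls in any comparison and a median difference of -0.37 for DNCB against sham and 0.09 for DNCB+HY209 against DNCB. Tfe3, a relative of Mitf expressed in most tissues, had a difference of 0.71 for DNCB against sham (SE 0.29, adjusted p = 0.270), opposite in sign to Mitf. Sox9, a factor of follicle stem cells, had one of -1.002 (SE 0.42, adjusted p = 0.284) and lay at 5.89 on sham array 1 and 7.58 on sham array 2, the other way round from 9 of the 10 pigment genes. Tfap2a had 9.59, 9.55 and 9.70 with HY209 and 8.90, 9.26 and 9.65 in DNCB skin, a difference of 0.34 (SE 0.25).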

How the data were processed

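Affymetrix 3′ arrays, 1 per sample, were hybridised with biotin-labelled RNA amplified from the 3′ end, per the labels' protocols. The authors deposited log2 signals per probe set, running from 1.59 to 14.52, a range from which the scale was inferred. Expression Console and MAS5 (Affymetrix) appear in the submitters' processing notes, without version or role. How arrays were scaled to each other is not stated. Values were used as deposited. Of 45101 probe sets, 64 were controls, 34945 had 1 gene symbol in the platform annotation, 932 several and 9160 were not listed. A probe set passed if it lay above its array's median on at least 2 of 8 arrays, and the brightest represented its gene, giving 12430 genes. Groups were compared with limma 3.58.1 (R 4.3.3; lmFit and eBayes with intensity trend, all 8 arrays, two-sided, Benjamini-Hochberg over all genes, threshold 0.05), tested first on simulated data. Each probe set was also fitted without a filter. All adjusted p-values of genes are from the gene fit.

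Named were all 10 members, up to 3 called genes of each other list or else those of largest moderated t (for the tissue lists other than hair follicle and Schwann cell, called genes only), and the 10 genes most alike by Pearson r. The members, lists and tests were chosen with earlier results of these data known. Alternatives were other normalizations, filters, probe set summaries, variance options, covariates, arrays in the fit and the replicate number as a block. Promoters were from RefSeq (GRCm38.p6). Python 3.11.15 drew the figures. The number of arrays limits the precision.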

Additional observations from a re-analysis of the deposited data

How the results depend on the processing

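No member was called in any comparison under the alternatives, except Mitf for DNCB against sham in a fit of only those groups (1 member called) and without DNCB+HY209 replicate 1, and for DNCB+HY209 against sham without DNCB+HY209 replicate 1 (0 to 1 member called with an array left out). Genes called for DNCB against sham, 227 with all arrays, numbered 15 to 352 with an array left out, 25 with the hair follicle covariate, 18 with the spike-in covariate, 452 with the Gapdh covariate and 35 with the replicate block. For DNCB+HY209 against sham, 50 with all arrays, they were 9 to 284 with an array left out, 98 after quantile normalization, 27 after median centring, 24 with the mean of probe sets, 745 with array weights, whose estimation stopped before convergence, 16 in the fit of only those groups, 12 with the replicate block and 11 with the spike-in covariate. Same-numbered arrays did not deviate together (r of -0.60 to 0.28 over 7 pairs, and -0.66 to 0.61 for other pairs), so the number was not taken as a pairing. With the block the median of the pigment genes was -1.27, 0.89 and -0.20 in the order DNCB against sham, DNCB+HY209 against DNCB, DNCB+HY209 against sham.

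With the hair follicle covariate the medians of the pigment genes were 0.76 for DNCB against sham and 1.08 for DNCB+HY209 against sham. For DNCB+HY209 against DNCB the median of 0.89 was 0.22 with that covariate, 0.15 with array weights and 0.09 without DNCB+HY209 replicate 1. Under the hair follicle covariate the differences of DNCB against sham turned to 1.08 for Tyr, 0.76 for Tyrp1, 1.20 for Dct, 0.54 for Pmel, 1.25 for Mlana, 0.13 for Sox10, 0.77 for Slc45a2, 0.81 for Oca2 and 0.28 for Trpm1. Those of DNCB+HY209 against sham turned, under the same covariate, to 1.21 for Tyr, 1.28 for Tyrp1, 1.31 for Pmel, 1.70 for Mlana, 0.21 for Sox10, 0.88 for Slc45a2, 0.95 for Oca2 and 0.47 for Trpm1. With the spike-in covariate Sox10 turned to 0.15 for DNCB against sham, and for DNCB+HY209 against sham the values were 0.16 for Tyr, 0.24 for Tyrp1, 0.41 for Pmel, 0.46 for Mlana, 0.35 for Sox10, 0.40 for Slc45a2, 0.44 for Oca2 and 0.087 for Trpm1. With the Gapdh covariate, chosen after seeing the data, they were 0.066 for Tyr, 0.36 for Tyrp1, 0.43 for Pmel, 0.46 for Mlana, 0.081 for Sox10, 0.25 for Slc45a2 and 0.12 for Oca2. In the same comparison Dct turned to -0.19 after quantile normalization and -0.64 with array weights, and median centring gave 0.020 for Tyrp1, 0.059 for Pmel and 0.063 for Sox10. For DNCB+HY209 against DNCB array weights gave -0.0030 for Tyr, -0.15 for Sox10, -0.11 for Slc45a2 and -0.20 for Oca2, and the mean of probe sets gave -0.040 for Sox10. With single arrays left out, DNCB against sham ran from -2.82 to 0.33 for Dct, and DNCB+HY209 against DNCB from -0.054 to 0.36 for Sox10 and from -0.058 to 1.24 for Oca2. DNCB+HY209 against sham ran from -2.05 to 0.92 for Tyr, -1.21 to 1.11 for Tyrp1, -1.49 to 1.66 for Dct, -0.98 to 0.95 for Pmel, -1.94 to 1.14 for Mlana, -0.26 to 0.16 for Sox10, -0.81 to 0.59 for Slc45a2, -1.15 to 0.65 for Oca2 and -1.08 to 0.10 for Trpm1. None of these differences was called, and the cause of the turns was not tested. Over the 3 comparisons, 619 of the recomputed single-gene values kept their direction and their side of the threshold, 68 turned direction and 3 passed the threshold. With 2 or 3 arrays a group, signals near the array median and an unstated scaling, small differences cannot be resolved.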
